A study of Sus scrofa with 2 samples.

Results

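Keratinocytes that carried transcripts of PTHLH, SOX9 or both were examined in pig skin. They were chosen among cells with at most 4500 genes, at most 30000 UMIs and at most 10% of UMIs on the 13 mitochondrial protein genes. A UMI is a molecular tag by which copies of 1 RNA molecule are counted once. A cell was kept when KRT5 took at least 0.3% of its UMIs and PTHLH and SOX9 together had at least 3 UMIs. KRT1 with KRT10, and the collagens COL1A1, COL1A2 and COL3A1, had each to stay under 1% of UMIs, and the 4 division genes TOP2A, CDK1, UBE2C and CDC20 under 5 UMIs. The rule found 151 cells, 47 fresh and 104 cryopreserved, among 6998 cells within the limits and 9239 deposited barcodes. They are called PTHLH/SOX9 keratinocytes here, and the 952 cells that passed the same gates with fewer than 3 PTHLH and SOX9 UMIs are called other KRT5 keratinocytes.

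The study asked how well frozen porcine skin cells keep their transcriptomes. Full-thickness dorsal skin of healthy male farm pigs was dissociated with enzymes, dead cells were sorted out, and droplet 3′ libraries were made. One library held freshly isolated cells (treatment label none) and the other held cells frozen in serum with DMSO, stored in liquid nitrogen and thawed (treatment label frozen). The protocol text attached to both samples describes freezing, so the groups follow the titles and treatment labels. The study calls the pigs young, with no age in the sources used here, and does not say whether both libraries came from 1 animal. With 1 library per group no test of fresh against cryopreserved cells was possible, and each interval below covers counting error only, at 95%.

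PTHLH encodes parathyroid hormone-related protein, a secreted peptide that signals through the receptor PTH1R on neighbouring cells and is known from skin, mammary gland and growing cartilage. SOX9 is a transcription factor that marks and maintains the stem cells of the hair follicle and its outer root sheath, the layer that is continuous with the basal epidermis. KRT5 is the keratin of the basal layer and of the outer root sheath.

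The label held only in part, since most cells did not show both transcripts. Of the 47 fresh cells, 22 (46.8%) held both, 20 (42.6%) held SOX9 alone and 5 (10.6%) held PTHLH alone. Of the 104 cryopreserved cells, 49 (47.1%) held both, 52 (50%) SOX9 alone and 3 (2.88%) PTHLH alone. Counts per cell were low. The median sum of PTHLH and SOX9 was 4 UMIs in each library, and the highest sums were 17 among fresh and 28 among cryopreserved cells. The highest single counts were 11 and 25 UMIs for PTHLH and 13 and 26 for SOX9. Just inside the threshold, at 3 UMIs, lay 16 fresh and 28 cryopreserved cells, and just outside it, at 2 UMIs, lay 11 and 41.

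**Figure D1:**
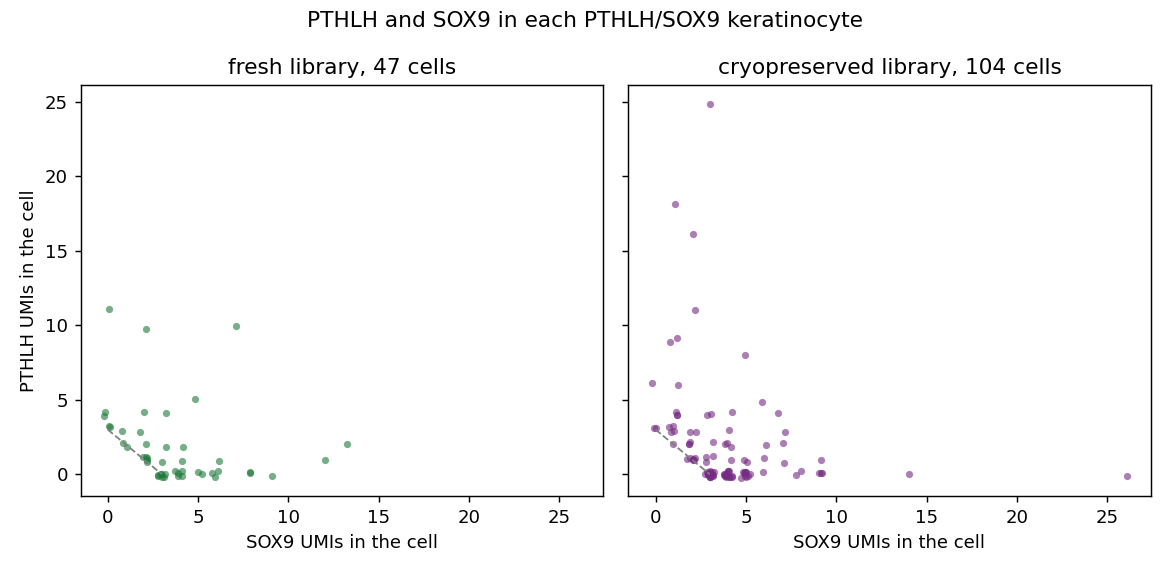
Each point is 1 PTHLH/SOX9 keratinocyte, with its SOX9 UMIs on the horizontal and its PTHLH UMIs on the vertical axis, shifted by a small random amount so that equal cells can be seen; the dashed line marks a sum of 3 UMIs. Most cells lie near the line, and 20 fresh and 52 cryopreserved cells lie on the floor with no PTHLH UMI.

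KRT5, though required by the rule, took a smaller share than in the other KRT5 keratinocytes. Its median share of UMIs was 0.990% (lowest 0.301%, highest 2.38%) in fresh PTHLH/SOX9 keratinocytes and 0.973% (0.309 to 4.62%) in cryopreserved ones. The medians of the other KRT5 keratinocytes were 1.66% and 1.52%. Other genes of the epithelial basal state, which the rule did not use, were present. TP63, the transcription factor of stratified epithelia, stood at 1124 CPM (counts per 1000000 UMIs, scaled with TMM factors) in fresh and 760 CPM in cryopreserved PTHLH/SOX9 keratinocytes. The integrin subunit ITGA6 stood at 898 and 565 CPM.

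The cells made up 12.8% (47 of 367; exact binomial interval 9.56 to 16.7%) of the fresh and 14.1% (104 of 736; 11.7 to 16.9%) of the cryopreserved cells that passed the other gates. These intervals overlap. A threshold in UMIs depends on depth, and the median cell had 14190 UMIs in the fresh (order-statistic interval 13870 to 15706) and 10466 in the cryopreserved library (8906 to 11715). Every cell was then thinned to 5000 UMIs, which kept 351 fresh and 669 cryopreserved gated cells and left out 16 and 67. With the rule applied again, the shares were 3.90% (14 of 359, interval 2.15 to 6.46%) and 6.17% (44 of 713, interval 4.52 to 8.20%). The intervals overlapped again. The 359 and 713 cells include some that the gates had removed at full depth. The limit on division genes is also a count of UMIs, which thinning lowers. The counting intervals did not overlap when the threshold was set at 0.03% of a cell's UMIs in place of 3 UMIs. That gave 7.36% (27 of 367; 4.90 to 10.5%) of the fresh gated cells and 13.6% (100 of 736; 11.2 to 16.3%) of the cryopreserved ones. How far apart the shares lay thus depended on how the threshold was set. Cells of 1 library are not replicates of a treatment, so a difference between fresh and cryopreserved shares was not tested. The libraries shared 6 barcodes, of which 1 belonged to a fresh PTHLH/SOX9 keratinocyte.

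The same count of 3 UMIs was read in the cells outside the gate. Of 115 fresh cells in a T or NK cell gate, where neither gene is expected, 0 reached 3 UMIs, which allows a share of up to 2.61% when 3 cells are taken as the limit of a count of 0. Of 193 cryopreserved cells in that gate 0 did, which allows up to 1.55% in the same way. These cells were shallower, with medians of 6666 and 5067 UMIs. In the deeper fibroblast gate (medians 13850 and 10230 UMIs) 9 of 1024 fresh cells (0.879%) and 17 of 1475 cryopreserved cells (1.15%) reached 3 UMIs. Dividing keratinocytes, which pass the KRT5 threshold and which the rule removed for their division genes, reached it in 1 of 13 fresh and 11 of 65 cryopreserved cells (16.9%; 8.76 to 28.3%), and suprabasal keratinocytes in 1 of 103 and 9 of 213. Cells that no gate took reached it in 5 of 364 fresh and 13 of 456 cryopreserved cells (1.37% and 2.85%), and had 14.5 (10.2 to 19.8) and 18.6 (13.4 to 25.3) PTHLH UPM (UMIs per 1000000 UMIs of the class, without TMM factors). The other KRT5 keratinocytes hold by the rule only cells with fewer than 3 PTHLH and SOX9 UMIs. Their levels are therefore capped and cannot be ranked against the classes above, which are not. Among them, the KRT15-rich cells and the cells with SERPINB2, CCL27 or CLDN4 were at or under 2.70 PTHLH UPM in each library. The remaining KRT5 cells had 16.7 (5.44 to 39.1) and 28.1 (14.98 to 48.1) PTHLH UPM and 63.6 and 54.1 SOX9 UPM, although their median depth was only 9041 and 5813 UMIs.

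**Figure D2:**
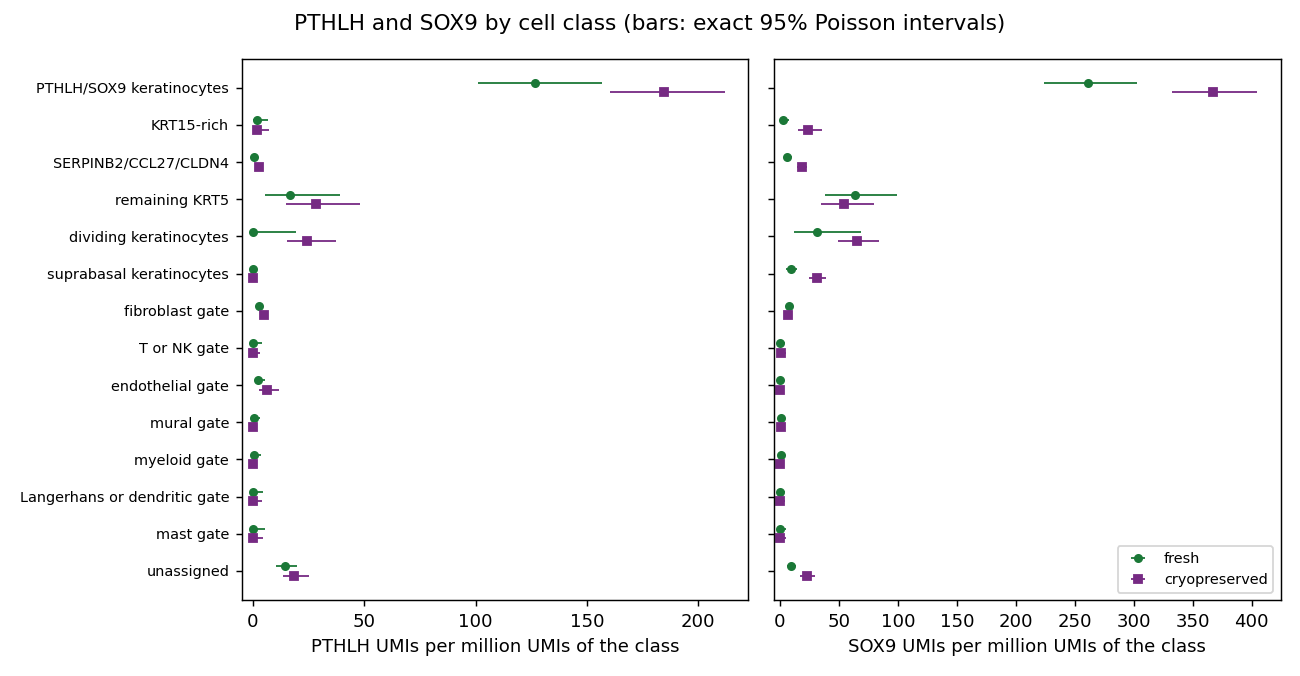
PTHLH (left) and SOX9 (right) in UPM for each cell class, by library, with exact Poisson intervals. PTHLH/SOX9 keratinocytes are high because the rule selects on these counts. The KRT15-rich cells, the cells with SERPINB2, CCL27 or CLDN4 and the remaining KRT5 keratinocytes are capped by the rule at fewer than 3 UMIs per cell. Even so, the remaining KRT5 keratinocytes stand above the immune, endothelial and mural gates for both genes. Dividing keratinocytes, which are not capped, had 0 PTHLH UMIs in 13 fresh cells (up to 19.3 UPM) and 24.4 UPM (15.1 to 37.3) in the cryopreserved library.

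PTHLH/SOX9 keratinocytes were then compared with all other KRT5 keratinocytes gene by gene. UMIs were summed over the cells of each class and library and scaled to CPM, and 6621 genes outside the rule had at least 200 UMIs over the 4 sums and at least 1 in each. A total of 120 genes (1.81%) were at least 2-fold higher in PTHLH/SOX9 keratinocytes than in other KRT5 keratinocytes in both libraries, and 183 genes (2.76%) were at least 2-fold lower in both. The median gene had a log2 ratio of -0.11 among fresh and -0.13 among cryopreserved cells. Since cells were chosen on 2 transcripts of the same libraries, these ratios are a description and not a test.

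F3, tissue factor, the cell-surface starter of blood clotting, was the most abundant of the named genes that were higher. It had 1536 CPM in fresh and 1779 CPM in cryopreserved PTHLH/SOX9 keratinocytes, against 343 and 407 CPM in the other KRT5 keratinocytes. The fresh ratio was 4.48 (4.13 to 4.85) and the cryopreserved ratio 4.37 (4.12 to 4.64), and 87.2% and 76.0% of PTHLH/SOX9 keratinocytes held at least 1 UMI. The UMIs were unevenly spread, since the 3 highest cells held 44.1% of the fresh and 23.8% of the cryopreserved F3 UMIs. The gene lies on chromosome 4 of Sscrofa11.1, 122827018 to 122837673. PDPN, podoplanin, a membrane mucoprotein of basal and follicle keratinocytes as well as of lymphatic vessels, stood at 720 and 656 CPM against 321 and 305 CPM, which gave ratios of 2.24 (2.02 to 2.49) and 2.15 (1.98 to 2.35). It lies on chromosome 6, 73019063 to 73050000. Both genes were higher in both libraries by nearly the same ratio.

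Several transcription factors were higher. DACH1 (chromosome 11, 43765386 to 44187766) had 85 UMIs in fresh PTHLH/SOX9 keratinocytes and 85 in the far larger pool of fresh other KRT5 keratinocytes, and 168 against 90 UMIs in the cryopreserved library. Its ratios were 6.37 (4.66 to 8.71) and 9.24 (7.11 to 12.1). GLI2 (chromosome 15, 30312528 to 30580272), the effector of hedgehog signalling, had 84 against 55 UMIs and 120 against 119 UMIs, with ratios of 9.73 (6.84 to 13.9) and 4.99 (3.84 to 6.48). RUNX1 (chromosome 13, 198371835 to 198635648), a factor known from hair follicle stem cells, stood at 312 and 319 CPM against 147 and 128 CPM. It was detected in 87.2% and 85.6% of the PTHLH/SOX9 keratinocytes. The forkhead factor FOXP2, the GATA cofactor ZFPM2 and the homeobox gene IRX3 were higher as well, with ratios of 4.97 and 4.88, of 6.03 and 7.82, and of 2.07 and 2.01 in the fresh and the cryopreserved library. Among PTHLH/SOX9 keratinocytes 1 cell held 29.7% of the cryopreserved FOXP2 UMIs, and 1 cell held 17.9% of the fresh GLI2 UMIs.

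PRICKLE2, a planar cell polarity protein, had the largest ratio of the named genes in the fresh library, 12.3 (8.58 to 17.9), and 8.34 (6.19 to 11.3) in the cryopreserved library. FZD7, a frizzled receptor for WNT ligands (chromosome 15, 105644164 to 105648860), stood at 51.0 and 93.2 CPM against 13.5 and 16.2 CPM. APCDD1, a membrane inhibitor of WNT signalling known from the hair follicle, had ratios of 4.86 (3.18 to 7.40) and 4.49 (3.18 to 6.31). The WNT list as a whole, described further on, held as many genes that passed downward as upward.

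Others were enzymes, transporters and secreted proteins. MOXD1, a copper monooxygenase of the secretory pathway (chromosome 1, 31282491 to 31367589), stood at 242 and 216 CPM against 22.4 and 34.7 CPM and was found in 74.5% and 67.3% of PTHLH/SOX9 keratinocytes, against 11.3% and 14.1% of the others. C1QTNF12, a secreted C1q/TNF-related protein, had a fresh ratio of 6.69 (5.59 to 8.002) and a cryopreserved ratio of 2.68 (2.31 to 3.10). SLC16A1, the lactate carrier MCT1, had ratios of 2.66 and 2.94, and the zinc and manganese carrier SLC39A8 of 4.20 and 4.36. The matrix protein THBS2 had ratios of 6.07 and 5.15, the RNA-binding proteins IGF2BP2 and RBMS3 of 6.92 and 5.01 and of 8.43 and 4.75, and the kinase PRKD1 of 10.8 and 5.59. PARM1 had 53 UMIs in fresh and 294 in cryopreserved PTHLH/SOX9 keratinocytes, with ratios of 4.50 and 11.3. USP54, a ubiquitin peptidase family member, had ratios of 5.64 and 7.70. The remaining named genes, MYO1D, PPFIBP2, TMEM131, AUTS2, FSTL1, RAI14, DHRS3, PRKCI and ENSSSCG00000004830, had ratios from 1.97 to 4.63.

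The genes that were lower were led by PDZRN4, a PDZ and RING finger protein, SOX6 and LY6D. PDZRN4 (chromosome 5, 72574370 to 72940883) had 20 UMIs in fresh PTHLH/SOX9 keratinocytes against 4142 in the others, and 32 against 4168 in the cryopreserved library, with ratios of 0.0308 (0.0188 to 0.0476) and 0.0380 (0.0260 to 0.0537). It was found in 81.3% and 65.5% of other KRT5 keratinocytes but in 12.8% and 8.65% of PTHLH/SOX9 keratinocytes. LY6D (chromosome 4, 1444029 to 1445714), a GPI-anchored protein of keratinocytes that enter stratification, stood at 69.9 and 82.8 CPM against 1490 and 1365 CPM. SOX6 (chromosome 2, 42447391 to 43068824) had 45.2 and 32.8 CPM against 754 and 488 CPM, with ratios of 0.0599 (0.0406 to 0.0852) and 0.0672 (0.0475 to 0.0925).

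TGM3, a transglutaminase that crosslinks the cornified envelope and the hair shaft, stood at 101 and 68.2 CPM against 957 and 734 CPM. WNT3, a WNT ligand, had ratios of 0.151 (0.0801 to 0.261) and 0.114 (0.0636 to 0.190). RORA, a nuclear receptor of keratinocyte differentiation, stood at 755 and 386 CPM against 1711 and 1323 CPM. SPARC, a matrix glycoprotein, had ratios of 0.380 and 0.319, COL18A1, a basement membrane collagen, of 0.327 and 0.456, and AQP3, the glycerol and water channel of the epidermis, of 0.470 and 0.440. These last 4 were still found in at least 77.9% of the PTHLH/SOX9 keratinocytes of each library. CA4, CACNA2D1, PLA2G4A, BMP3, SLC24A2, EREG, ASCL2, KRT2 and PLEKHH1 had between 1 and 14 UMIs in the PTHLH/SOX9 keratinocytes of each library. PCDH7 had ratios of 0.0858 and 0.157, and the calcium pump ATP2B1 of 0.477 and 0.396. Ratios from 0.350 to 0.494 were found for CAMK2N1, EHD2, PACS1, ENSSSCG00000011355 and ENSSSCG00000001229.

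**Figure D3:**
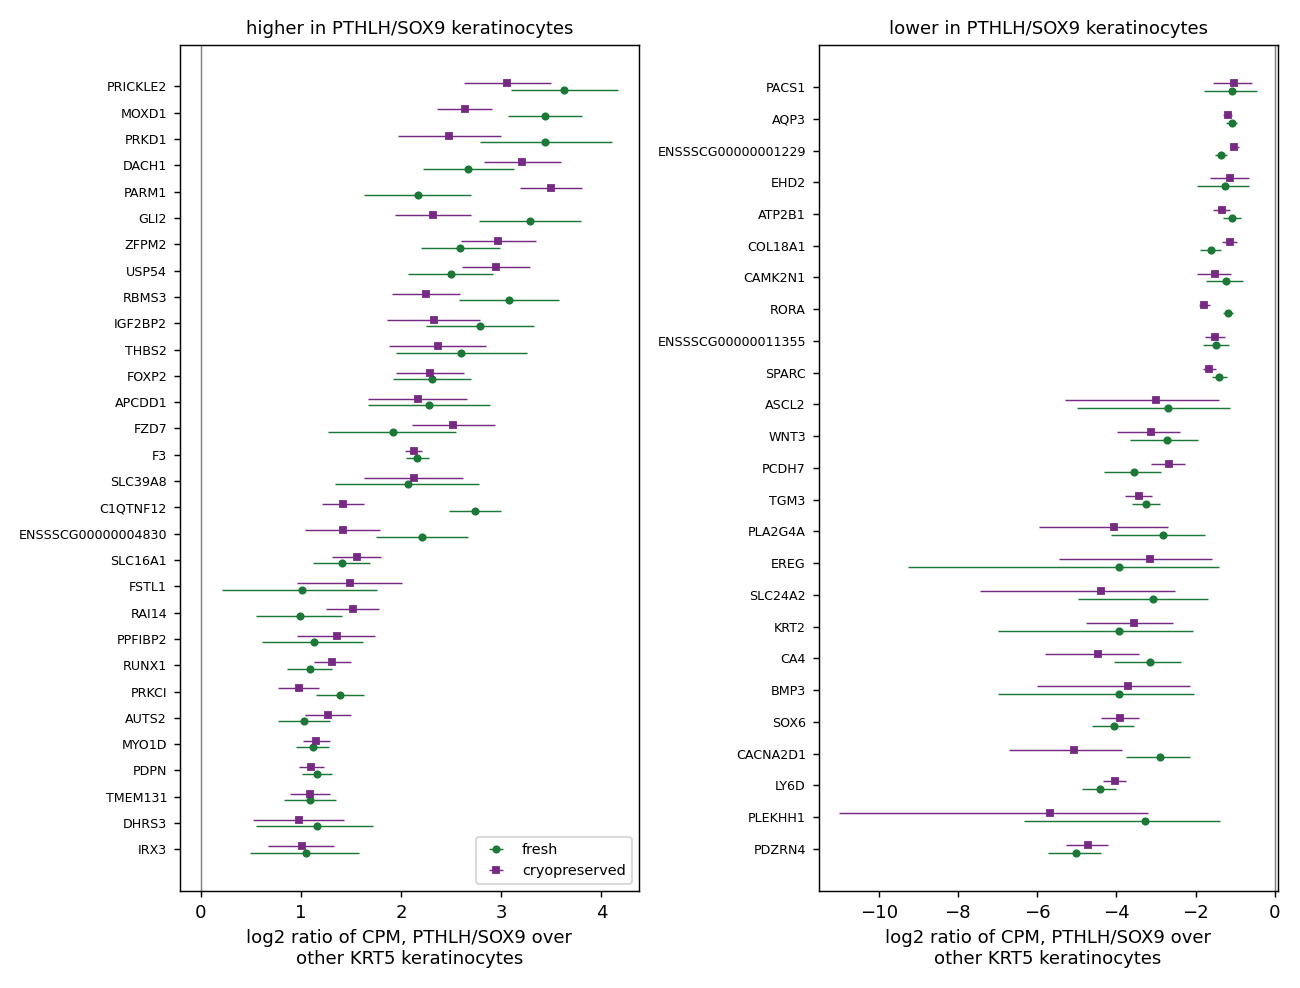
Log2 ratios of CPM, PTHLH/SOX9 over other KRT5 keratinocytes, for the named genes that were higher (left) and lower (right), with exact binomial counting intervals, by library. All points are above 0 on the left and under 0 on the right, with PRICKLE2 at 3.62 and PDZRN4 at -5.02 in the fresh library; PLEKHH1, on 1 cryopreserved UMI, is lowest at -5.68.

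The remaining KRT5 keratinocytes, which carry neither KRT15 at 0.3% of UMIs nor 3 UMIs of SERPINB2, CCL27 and CLDN4, were closest to the PTHLH/SOX9 keratinocytes in many of these genes. RUNX1 was higher in them, at 847 (746 to 958) UPM against 319 (278 to 365) in the fresh and 357 against 332 UPM in the cryopreserved library. MOXD1 stood at 188 (142 to 244) and 197 (159 to 242) UPM against 248 (211 to 288) and 224 (197 to 254) UPM, and the intervals overlapped in both libraries. DACH1 stood at 104 and 106 UPM against 127 and 151 UPM. C1QTNF12 was lower in them in the fresh library, at 268 against 380 UPM, and not in the cryopreserved library, at 290 against 259 UPM. ZFPM2 went the other way, at 211 against 158 UPM and 58.4 against 142 UPM. F3 was lower in them, at 904 (800 to 1019) and 814 (734 to 900) UPM against 1572 (1478 to 1669) and 1850 (1771 to 1932) UPM. Of the 30 named higher genes 22 were also above the remaining KRT5 keratinocytes in both libraries, in 6 with intervals that did not overlap in either library, and of the 25 named lower genes 19 were below them, 5 with such intervals. RUNX1 had the opposite direction in both libraries, as had PLEKHH1 among the lower genes, with 2 and 1 UMIs in PTHLH/SOX9 and 0 in the remaining KRT5 keratinocytes. Some named higher genes were higher still in the fibroblast gate. RBMS3 stood there at 769 and 696 UPM, against 122 and 129 UPM in PTHLH/SOX9 keratinocytes, and THBS2 at 244 and 237 against 61.1 and 68.2 UPM. Others were lower in the fibroblast gate, such as MOXD1 at 38.0 and 25.7 UPM and C1QTNF12 at 2.58 and 3.60 UPM.

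A further 11 genes had at least 200 UMIs but were at 0 in at least 1 of the sums, 10 of them in fresh and 2 in cryopreserved PTHLH/SOX9 keratinocytes. MMP3, the secreted matrix protease stromelysin, had 0 UMIs in the 47 fresh cells and 1004 UMIs in 33 of the 320 fresh other KRT5 keratinocytes. With a floor of 3 UMIs over the group it was at least 52.5-fold lower. In the cryopreserved library 1 UMI stood against 1604 UMIs in 76 cells, a ratio of 0.00308 (7.81e-05 to 0.0172). MMP3 was thus borne by a minority of the other KRT5 keratinocytes and nearly none of the PTHLH/SOX9 keratinocytes.

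Gene lists were read at a lower step of 1.5-fold in both libraries, which 251 of the 6621 genes (3.79%) passed upward and 520 (7.85%) downward. Of the 24 listed outer root sheath and bulge genes found by name, 12 were measured and 11 lay outside the rule. There were 7 genes that passed upward, namely TCF7L2, NFATC1, RUNX1, LGR6, FZD7, SFRP1 and BARX2, and 1 passed downward. The median log2 ratio was 0.99 among fresh and 0.85 among cryopreserved cells. TCF7L2, FZD7 and SFRP1 were also on the WNT list, and RUNX1 was not higher than in the remaining KRT5 keratinocytes, as given above. BARX2, a homeobox factor of the hair follicle, stood at 360 and 249 CPM against 86.7 and 94.7 CPM. NFATC1, which keeps bulge stem cells quiescent, had ratios of 1.91 (1.63 to 2.23) and 1.69 (1.48 to 1.92). LGR6, a receptor of stem cells above the bulge, had 39 against 67 UMIs and 38 against 77 UMIs, with ratios of 3.71 (2.43 to 5.58) and 2.44 (1.61 to 3.65). CXCL14, an epithelial chemokine, was the gene that passed downward, with ratios of 0.365 and 0.425. The BMP and activin antagonist FST had ratios of 2.56 and 1.45, and NPNT and GPX2 lay within 1.5-fold of 1. Genes of the list under the UMI minimum included the bulge receptor LGR5, with 20 against 18 UMIs and 55 against 49 UMIs, and the stem cell factor LHX2, with 5 against 2 and 48 against 18. Of the LHX2 UMIs, 4 of the 5 fresh ones came from 1 cell and 21 of the 48 cryopreserved ones from 7 cells described further on. Keratins that usually mark the outer root sheath, such as KRT17 and KRT16, were not found by name and were not analysed here. KRT15 was not counted in this list. It was read with the basal layer genes below and was lower in both libraries.

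The lists of the follicle's other layers and glands held few measured genes. Of the inner root sheath and hair shaft genes 3 were measured, of which CUX1 and DLX3 passed downward and GATA3 did not pass, while 13 others, among them KRT71, KRT25 and SHH, had 0 UMIs in PTHLH/SOX9 keratinocytes of both libraries. Of 3 sebaceous gland genes PRDM1 passed downward, with ratios of 0.370 and 0.637. Of 3 sweat gland and simple epithelium genes none passed in both libraries. None of these lists passed upward.

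Genes of the basal layer and its tie to the basement membrane were read next. Of 16 measured genes outside the rule 0 passed upward and 5 downward, and the median log2 ratio was -0.36 and -0.45. The 5 were COL17A1 and DST, which build hemidesmosomes, the integrin subunit ITGB4, and the laminin chains LAMA3 and LAMB3. COL17A1 stood at 1036 and 708 CPM against 1628 and 1522 CPM. KRT15 differed between the libraries, with a fresh ratio of 0.412 (0.380 to 0.446) and a cryopreserved ratio of 0.834 (0.792 to 0.879).

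Of 11 measured spinous and granular genes outside the rule, 4 passed downward (KRT2, DSC1, LY6D and TGM3) and 1 upward. That 1 was SPINK5, the protease inhibitor LEKTI, at 134 and 180 CPM against 43.0 and 50.8 CPM. Of 10 keratinocyte activation genes 5 passed downward and 0 upward. They were the plasminogen activation genes SERPINB2, PLAU and PLAUR and the EGF receptor ligands AREG and EREG. PLAU, urokinase, had ratios of 0.552 (0.471 to 0.645) and 0.248 (0.204 to 0.299), and AREG of 0.229 (0.151 to 0.334) and 0.0944 (0.0582 to 0.145).

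The signalling lists held genes of both directions. Of 13 WNT genes the ligands WNT3, WNT7B and WNT16 passed downward and the receptor FZD7, the nuclear effector TCF7L2 and the secreted antagonist SFRP1 upward. Of 17 TGF-beta and BMP genes TGFB1 passed upward, with ratios of 2.59 (2.10 to 3.19) and 1.66 (1.37 to 1.997), and TGFBR3, BMP7, BMPR1B and ID1 downward. BMPR1B, a BMP receptor, had ratios of 0.241 and 0.247. Of 10 Notch genes the ligands JAG2 and DLL1 and the coactivator MAML2 passed downward and 0 upward. Of 5 hedgehog genes GLI2 passed upward and 0 downward. Of 3 SOX family genes outside the rule SOX5 and SOX6 passed downward. The receptor for the PTHLH product itself was at the edge of detection, since PTH1R had 0 UMIs in fresh and 1 UMI in cryopreserved PTHLH/SOX9 keratinocytes.

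Among 15 junction genes, the gap junction protein GJA1 and the cadherin CDH13 passed upward and PKP1, PKP3 and CLDN4 downward. GJA1 stood at 458 and 658 CPM against 204 and 203 CPM. Of 4 chemokine and complement genes CCL2, a monocyte attractant, passed upward with ratios of 7.25 (6.61 to 7.95) and 3.05 (2.89 to 3.23). The 3 highest PTHLH/SOX9 keratinocytes held 42.1% of the fresh and 22.9% of the cryopreserved CCL2 UMIs. CCL27, the skin-homing chemokine of T cells, passed downward with ratios of 0.195 and 0.1003 together with CXCL14. Of 16 immediate early genes EGR2 passed upward and DUSP1 and KLF2 downward; the interval of KLF2 in the fresh library, 0.339 to 1.06, reached 1. Of 12 heat shock and cold response genes and of 6 cell division genes 0 passed in either direction.

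**Figure D4:**
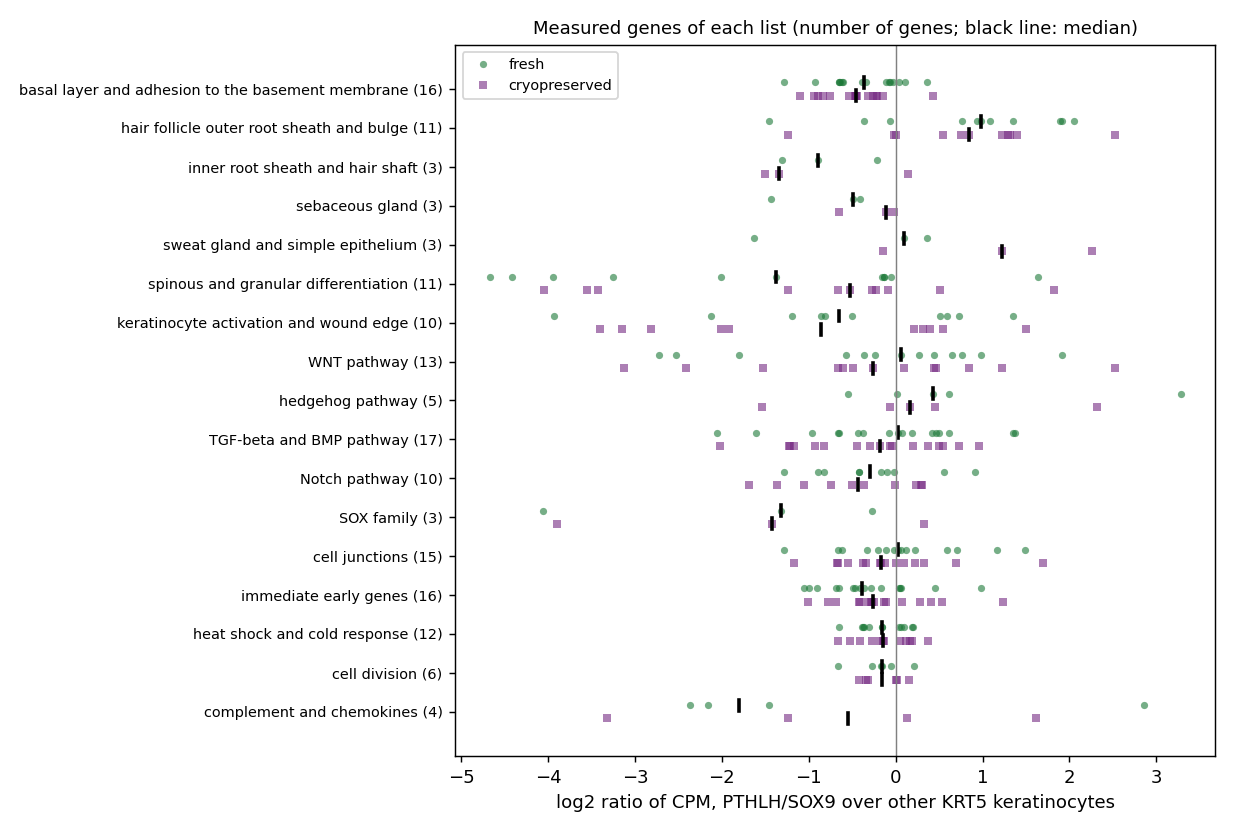
Log2 ratio of CPM, PTHLH/SOX9 over other KRT5 keratinocytes, for each measured gene outside the rule in lists with at least 3 such genes; each point is a gene in 1 library and the black lines are medians. The outer root sheath and bulge list has medians of 0.99 and 0.85, and the heat shock and cell division lists stay near 0. Dividing cells were removed from both sides by the rule.

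RNA of other lineages was summed over marker lists. The 8 fibroblast markers, 3 of them collagens that the rule used, summed to 421 and 327 CPM against 442 and 391 CPM in the other KRT5 keratinocytes, with DCN the most abundant and 0 markers absent. Of 7 T or NK markers CD3D, CD3E, CD3G, CD2, NKG7 and IL7R were at 0, and the sum was 1.46 and 16.4 CPM against 3.66 and 5.41 CPM, all of it CCL5 in the PTHLH/SOX9 keratinocytes. The 6 lymphatic markers summed to 734 and 670 CPM against 334 and 316 CPM, almost wholly PDPN, while PROX1, LYVE1 and FLT4 were at 0. The 7 melanocyte markers summed to 131 and 139 CPM against 105 and 86.3 CPM, led by MITF, with PMEL, MLANA, TYRP1 and TYR at 0. Endothelial markers summed to 14.6 and 69.9 CPM against 34.8 and 33.7 CPM, led by PECAM1, with TEK at 0. Mural markers, led by NOTCH3 with 0 absent, came to 58.3 and 79.4 CPM against 54.7 and 124 CPM. Mast cell markers came to 11.7 and 10.4 CPM against 18.3 and 3.14 CPM, led by KIT, with MS4A2, HDC and GATA2 at 0. The myeloid sum was 2.91 and 5.18 CPM against 46.0 and 22.7 CPM, led by CD68, with CD163, CD209, C1QB and CSF1R at 0. The Langerhans sum was 0 and 5.18 CPM against 5.03 and 4.88 CPM, with CD207 and FLT3 at 0. Merkel markers came to 1 and 2 UMIs. Erythrocyte markers, almost all HBB, came to 156 and 158 CPM against 202 and 206 CPM. The part of these transcripts in the gene differences was not tested.

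Levels were also read by the PTHLH and SOX9 count. The named genes were chosen by the split at 3 UMIs, so the gap between the ends of this scale is fixed by the choice. The cells with 1 or 2 UMIs entered that choice as part of the other KRT5 keratinocytes. Their levels are therefore a description and not a test. F3 stood at 258 UPM in fresh KRT5-gated cells with 0 such UMIs, 881 in those with 1 or 2, 1298 with 3 or 4 and 1901 with 5 or more. In the cryopreserved library it stood at 249, 1017, 1594 and 2091. PDZRN4 went the other way, from 1021 over 165 and 46.4 to 9.87 UPM in the fresh library and from 818 over 217 and 38.8 to 19.2 in the cryopreserved library. Cells with 1 or 2 UMIs, which the rule places outside, therefore lay between the others in both genes. The same was true in both libraries for 21 of the 30 named higher genes and 21 of the 25 named lower genes, which were chosen on the same counts. A strict order over all 4 groups in both libraries was found for 11 and 13 of them. GLI2 kept this order in the fresh library (7.56, 46.3, 90.0 and 168) but not in the cryopreserved library (16.5, 35.8, 128 and 88.9). KRT5 itself, a gene of the rule, went from 20358 over 14778 and 11582 to 11375 in the fresh library and from 19015 over 14194 and 11798 to 14789 in the cryopreserved library.

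**Figure D5:**
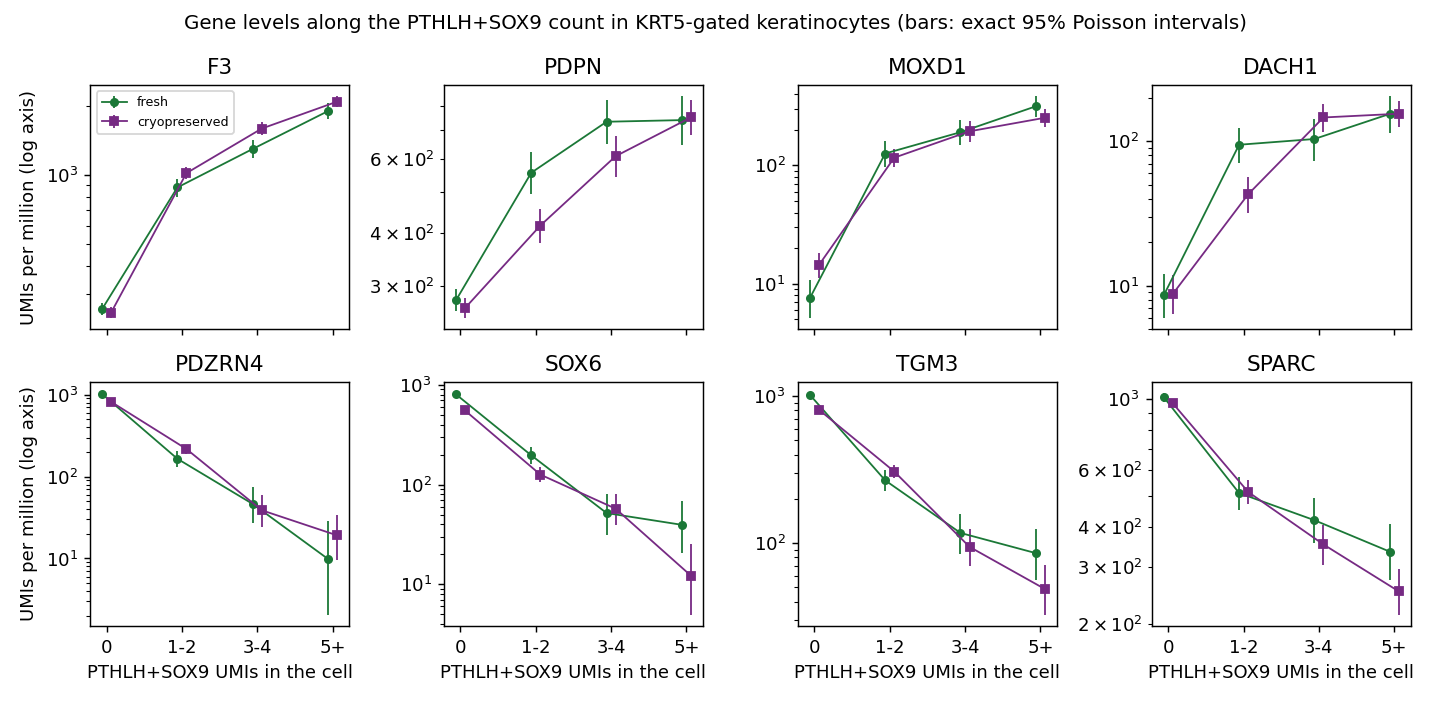
UPM (log axis) of 4 named higher and 4 named lower genes in KRT5-gated cells grouped by their PTHLH and SOX9 UMIs, by library, with exact Poisson intervals. All genes shown keep a strict order over the groups in both libraries. Of the named genes only 11 of 30 higher and 13 of 25 lower ones do so. F3 is higher and PDZRN4 lower in each next group; the rule's threshold lies between the groups at 1 or 2 and at 3 or 4.

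The cells kept by the rule were not all alike. The split that follows uses the rule's own counts and genes chosen with them, so it is a description and not a test. The median sum of PTHLH and SOX9 UMIs was 5 in fresh and 6 in cryopreserved cells with both transcripts, against 4 and 4 with SOX9 alone. Cells with SOX9 alone held as few as 3 UMIs, so 0 PTHLH UMIs does not show that PTHLH was absent. Cells with both transcripts had 2419 (2248 to 2599) fresh and 2771 (2625 to 2922) cryopreserved F3 UPM, whereas cells with SOX9 alone had 580 (495 to 676) and 866 (793 to 944). The 5 fresh and 3 cryopreserved cells with PTHLH alone had 1867 (1575 to 2199) and 7104 (6120 to 8202) F3 UPM, also above the cells with SOX9 alone. PDPN stood at 1092 and 1008 against 413 and 386 UPM. Of the 30 named higher genes 22 were higher in cells with both transcripts than in cells with SOX9 alone in both libraries, 3 (DHRS3, PARM1 and RAI14) were lower in both and 5 differed in direction. PARM1 and RAI14 stood at 163 (129 to 203) against 303 (260 to 350) UPM and at 93.9 against 239 UPM in the cryopreserved library. GLI2 differed in direction, at 150 against 94.4 UPM in the fresh and 57.1 (38.0 to 82.6) against 152 (122 to 187) UPM in the cryopreserved library. LY6D was lower in cells with both transcripts, with 0 UMIs in the 22 fresh cells with both transcripts and 22.4 UPM in the cryopreserved ones, against 168 and 142 in cells with SOX9 alone. Few cells carried it, since among those with SOX9 alone its UMIs lay in 3 of 20 fresh cells and in 10 of 52 cryopreserved ones. PDZRN4 and SOX6 were at most 49.0 UPM in either kind of cell, so both kinds were low in these genes. KRT15 was lower in fresh cells with both transcripts than in those with SOX9 alone (901 and 1046) and higher in cryopreserved ones (2355 and 712).

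A small set of cryopreserved cells with SOX9 alone carried GJB6, a gap junction protein. It was found after the values were seen, as the 7 cells with at least 5 GJB6 UMIs, which held 230 of the 235 GJB6 UMIs of the cryopreserved PTHLH/SOX9 keratinocytes. Of the 47 fresh cells 0 did, which allows a share of up to 6.38% by the same limit of 3 cells. The 7 cells had 48 SOX9 and 0 PTHLH UMIs and a median depth of 13048 UMIs. They held 110 of the 120 UMIs of CA2, a carbonic anhydrase, 120 of the 135 of CTNND2, a catenin, 105 of the 136 of HSD17B2, a steroid dehydrogenase, and 26 of the 41 of TBX1, a T-box factor. In turn they held 2 of 2062 F3 UMIs, 0 of 760 PDPN UMIs and 1 of 1679 KRT15 UMIs. They were thus nearly without F3 and PDPN, but held 21 of the 48 LHX2 UMIs and 13 of the 55 LGR5 UMIs. Without them 6588 genes were measured, of which 118 were at least 2-fold higher and 184 lower in both libraries. Of these, 114 and 171 were among those found with them.

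Freezing was compared within the PTHLH/SOX9 keratinocytes. The median cell of the cryopreserved library had 0.738 times the UMIs (range of the medians' intervals 0.567 to 0.845) and 0.872 times the genes of the fresh library, where the medians were 3772 genes in fresh and 3290.5 in cryopreserved cells. With every cell thinned to 5000 UMIs the medians were 2074 and 2119 genes. The mitochondrial share, which the rule limits, was 4.71% and 4.55% in the median. Of 1688 genes with at least 200 UMIs over these cells, 22 (1.3%) were at least 2-fold higher and 16 (0.948%) at least 2-fold lower in the cryopreserved library, and the median absolute log2 ratio was 0.24.

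SLC3A1, a subunit of an amino acid transporter, was higher in cryopreserved cells. It stood at 527 against 224 CPM, a ratio of 2.35 (1.97 to 2.82), and its ratio in the other KRT5 keratinocytes was 2.32. ATP5ME and ATP5MD, subunits of the mitochondrial ATP synthase, had ratios of 2.12 and 1.74 here and 1.49 and 1.39 in the others. The ER chaperone CALR had 1.74 here and 1.77 there, and the proteasome assembly factor POMP had 1.79 and 1.16. RAI14 had 1.85 and 1.28 and the integrin subunit ITGB5 1.81 (1.37 to 2.41) and 1.01 (0.928 to 1.11). ENSSSCG00000037879 had 1.72 and 1.63. PARM1, named above, had 3.29 (2.45 to 4.49) and 1.31.

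VEZT, vezatin, an adherens junction protein, had the lowest ratio of the genes named for freezing, which have at least 200 UMIs in these cells and lie outside the rule, at 67.3 CPM in cryopreserved and 188 CPM in fresh PTHLH/SOX9 keratinocytes. Its ratio was 0.358 (0.267 to 0.478), the gene was found in 39.4% against 78.7% of the cells, and its ratio in the other KRT5 keratinocytes was 1.01 (0.926 to 1.11). The ribosomal protein genes RPS20 and RPL7 had 0.456 and 0.512 here and 0.526 and 0.537 there. RORA had 0.511 (0.449 to 0.581) and 0.773. PNN, AGO2 and MYO9B had ratios from 0.547 to 0.560 here and from 0.803 to 0.939 there. Among the mitochondrial genes of the rule, ND3 had 753 UMIs in fresh and 215 in cryopreserved cells, a ratio of 0.169 (0.145 to 0.197), against 0.253 in the other KRT5 keratinocytes. For SLC3A1, ATP5MD, CALR, POMP, RAI14, ENSSSCG00000037879 and RPL7 the intervals of the ratio in both kinds of keratinocyte overlapped. For ATP5ME, ITGB5, PARM1, VEZT, RPS20, RORA, PNN, AGO2, MYO9B and ND3 they did not. With 1 library per treatment, freezing and the library cannot be told apart, and the difference of these ratios was not tested.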

How the data were processed

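The authors processed reads with Cell Ranger 4.0.0 (STAR 2.5.1b in the submitters' processing notes) on Sscrofa11.1 and deposited UMI counts per gene and barcode, unnormalized, for 1 fresh and 1 cryopreserved library (53271738 and 42217632 UMIs). Sorting removed dead cells and aggregates before libraries were made; no doublet caller was run, and cells with at least 3 UMIs of 10 markers of other lineages were left out in an alternative (0 fresh and 1 cryopreserved PTHLH/SOX9 keratinocytes). The members, the rule and the 30 gene lists were chosen with earlier results of these data known.

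Counts were summed per class and library (670696 and 1114643 UMIs in PTHLH/SOX9, 4507805 and 5915213 in other KRT5 keratinocytes) and scaled with TMM (edgeR 4.0.16). DESeq2 1.42.0 size factors, total UMIs, lower count minimums, cell-wise means, thinning and other thresholds were alternatives. Intervals are exact Poisson for levels, conditional binomial for ratios and Clopper-Pearson for shares. Gene symbols came from the files (16719 of 31908 features), and 772 more from the reference's name table; 360 of 414 listed genes were found. Positions are RefSeq's for Sscrofa11.1.

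Named were the 15 highest and 10 lowest genes by the smaller log2 ratio of the libraries, with no cell above 10% of a gene's UMIs in PTHLH/SOX9 keratinocytes, and the 8 highest and 8 lowest for freezing, of which 1 is not reported here. After values were seen, 15 higher genes (with a symbol, found in at least 25% of cells, no cell above 30%) and the 15 lowest with a symbol were added, as were MMP3 and the GJB6 cells; the named genes are both sets together. Up to 4 genes per list were to be named, the most abundant and those furthest from 0; the other list genes in the text were also added after values were seen. The steps were tested on simulated data.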

Additional observations from a re-analysis of the deposited data

Results flagged for a closer look

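In 6 genes the log2 ratio of PTHLH/SOX9 over other KRT5 keratinocytes was at least 1 in size in both libraries but of opposite sign, and the difference between the libraries was not tested. SETBP1 was at -1.096 among fresh and 1.3 among cryopreserved cells, and 51 of its 111 UMIs in cryopreserved PTHLH/SOX9 keratinocytes came from 1 cell. CST6 was at -1.136 and 1.006, with 4 and 41 UMIs. CA2 was at -1.626 and 2.26, with 110 of its 120 cryopreserved UMIs in the 7 cells with GJB6. RCAN2 was at -2.156 and 1.205, with 5 and 34 UMIs. ENDOU was at 1.43 and -2.626, and 53 of its 99 fresh UMIs came from 1 cell. PECAM1 was at -1.083 and 1.272, with 8 UMIs in 5 fresh cells and 41 UMIs in 8 cryopreserved cells.

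Barcodes beyond the gene, UMI or mitochondrial limits, which entered no comparison in the report, also passed the gene gates of the rule. There were 22 such fresh barcodes among 189 that passed the other gene gates (11.6%, exact binomial interval 7.44 to 17.1%), and 10 cryopreserved ones among 91 (10.99%, 5.397 to 19.3%). Of these, 19 fresh and 9 cryopreserved barcodes were over the gene or UMI maximum, and 3 and 1 were over the mitochondrial limit alone. Their median depth was 23563 and 21851 UMIs. Those over the mitochondrial limit alone entered the alternative without that limit.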

How the results depend on the processing

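The low-count minimum moved the counts most. With at least 50 UMIs 290 genes were 2-fold higher and 344 lower in PTHLH/SOX9 keratinocytes, 131 higher and 74 lower after freezing, and 23 listed genes passed upward, against 14 of the listed genes with 200. With no minimum other than 1 UMI in each sum these were 671, 371, 1087, 964 and 29, and with cells thinned to 5000 UMIs 63, 106, 7, 4 and 9. Genes lower in the cryopreserved library numbered 10 of 2155 with a threshold of 2 PTHLH and SOX9 UMIs and 25 of 1841 with KRT5 at 0.1%. The share of the KRT5 gate was 19.7% (cryopreserved) with a threshold of 2 UMIs, 5.722% and 6.929% with 5 UMIs, 3.27% and 3.668% with PTHLH alone, 8.174% and 10.33% with SOX9 alone, 7.357% (fresh) against 13.6% (cryopreserved) with 0.03% of UMIs, 3.9% and 6.171% after thinning to 5000 UMIs and 1.635% and 2.742% after thinning to 3000. Scaling by total UMIs gave 140 higher and 152 lower of the same 6621 genes. It moved the median log2 ratio from -0.11 and -0.13 to -0.03 and -0.03. Under the alternatives in which they were measured, the named genes kept their direction in 866 of 866 values, and 6 moved by over 1 on the log2 scale. These genes were picked for large ratios in the same counts, and the alternatives reuse largely the same cells. The kept direction was thus nearly fixed by the choice and is not a test. Leaving out the GJB6 cells was chosen after seeing the data. Fresh and cryopreserved cells could not be paired because each group had 1 library. PTHLH/SOX9 and other KRT5 keratinocytes were compared within each library. The cause of these shifts was not tested, apart from the number of genes or cells that each setting keeps. The 47 fresh cells set the depth behind the low-count genes.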
